A study of Mus musculus with 8 samples.

Results

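The E18.5 control dermis was compared with the E18.5 control epidermis, across all genes measured in 1 RNA sequencing library of each. Every listed gene symbol entered, its FPKM (fragments mapped to a transcript, scaled by its length and by the mapped fragments of the library) summed over its transcripts. Of 21882 symbols, 212 with a failed or flagged estimate in either table were dropped, and 13130 of the 21670 left had at least 1 FPKM in either library. The whole series holds 8 libraries of C57BL/6 mouse skin, of which 4 are E18.5 dermis or epidermis. The controls were labelled Cyp26b1f/+, that is, they carried 1 floxed and 1 intact allele of the retinoic acid degrading enzyme gene Cyp26b1, and no Cre was named for them. A second pair of E18.5 libraries, mutant dermis and mutant epidermis of the genotype En1cre;Cyp26b1f/-, is set beside the control pair for some lists and genes. In those embryos a Cre driven from the En1 locus acts on the floxed allele, and the other allele is null, so they are another genotype and not replicates. The libraries carry different numbers in their labels, so the labels do not tie a dermis to the epidermis of the same embryo, and they do not say how the layers were parted or whether embryos were pooled.

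Embryonic skin shortly before birth is made of a stratified epithelium over a connective tissue. In the epidermis, basal keratinocytes sit on the basement membrane and divide, and their daughters move up through spinous and granular layers to form the cornified barrier. The dermis holds fibroblasts that lay down collagen and elastin, vessels, nerves, mast cells, fat cells and, at its lower edge, muscle. Hair follicles are epithelial, but they grow down into the dermis and enclose a mesenchymal papilla.

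The tables of the dermis and the epidermis were scaled separately, so FPKM are printed as deposited but a tissue is called higher only from ratios relative to the median gene. Throughout, the log2 ratio is log2((dermis FPKM + 1)/(epidermis FPKM + 1)) minus its median over the 13130 genes, which was 0.41. Positive values lie to the dermis side. A gene is called higher in a tissue when this ratio passes 2-fold (log2 of 1), and a second count uses 8-fold (log2 of 3). With this pseudocount and shift, a gene at 0 FPKM in the dermis that enters through the epidermis alone is always called higher there. The reverse does not hold: Col2a1, at 1.12 FPKM in the dermis and 0 in the epidermis, read 0.67. With 1 library a tissue there is no replicate check and no test, and every count below describes these libraries only. Values of a list in the mutant pair cover those of its members counted in the control pair that also had at least 1 FPKM in either mutant library. In bulk tissue, fewer cells of a type and less RNA per cell cannot be told apart.

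The tissues differed widely. At 2-fold, 2860 genes were higher in the dermis (21.8% of 13130) and 3007 in the epidermis (22.9%), and 7263 lay within 2-fold. At 8-fold, 377 genes were higher in the dermis (2.87%) and 511 in the epidermis (3.89%). The dermis side of the list was led by Car3, Clec3b, the elastin gene Eln, the mesenchymal transcription factors Osr2 and Twist2, and the endothelial claudin Cldn5. Of the 15 genes highest in epidermis over dermis, 12 were late cornified envelope genes of the Lce1 group, and the others were Calm4, Kprp and Krtdap. The split between the sides rests on the reference: it was 48.7% to the dermis side at 2-fold as centred here, 59.8% when centred on genes with at least 10 FPKM in both, 68.2% without centring, 84.7% when centred on a housekeeping list and 88.6% when centred on ribosomal protein genes. At 8-fold the same settings put 42.5%, 53.8%, 61.3%, 81.1% and 86.1% on the dermis side.

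**Figure D1:**
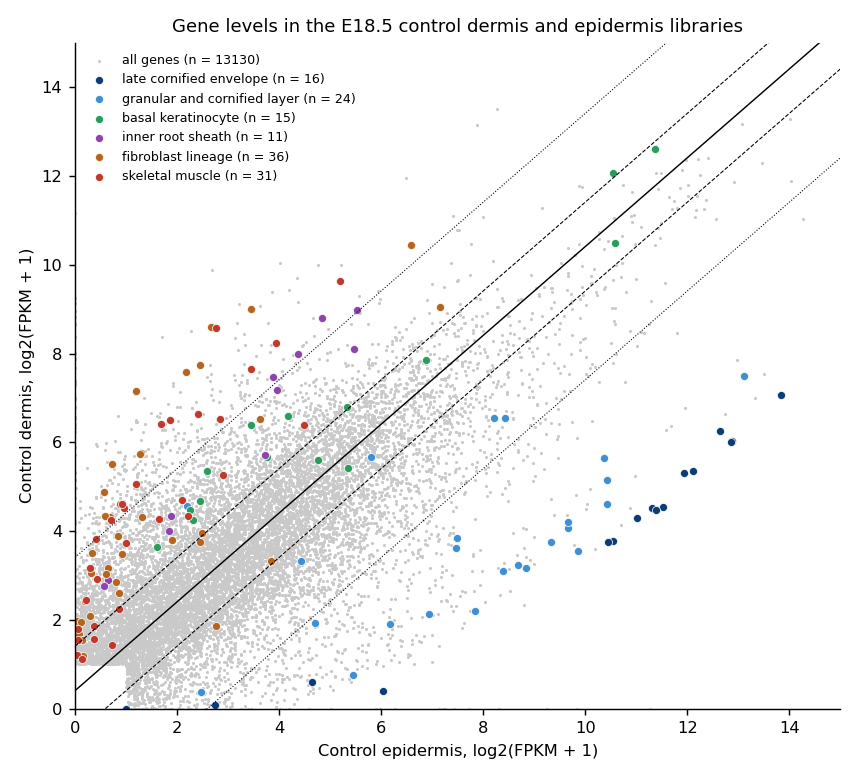
Each point is a gene, with its level in the control epidermis on the horizontal axis and in the control dermis on the vertical axis, both as log2(FPKM + 1), 1 library each. The solid line is the median ratio, the dashed lines mark 2-fold and the dotted lines 8-fold; late cornified envelope genes lie far to the epidermis side, fibroblast and muscle genes to the dermis side, and basal keratinocyte genes along or above the median line.

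Promoter windows are shown for genes that stand for the main groups: Krtdap and Ivl for the upper epidermal layers, Krt25 for the hair follicle and Twist2 for the dermal fibroblast. They come from RefSeq (windows of 250 bases before to 50 after the start of the gene, 300 in all) and each matched mm9, the build of the tables, at 1 place. The windows are chr7:31572674-31572973 (+) for Krtdap, chr3:92377608-92377907 (-) for Ivl, chr11:99184216-99184515 (-) for Krt25 and chr1:93697788-93698087 (+) for Twist2. Capitals mark every match to 3 motifs searched on both strands. The first, known from AP-1 sites, is TGANTCA. The next, known from core promoters of many tissue genes, is TATAAA. The last, known from Sp1 sites, is GGGCGG, and a match on the other strand shows its reverse complement.
Krtdap: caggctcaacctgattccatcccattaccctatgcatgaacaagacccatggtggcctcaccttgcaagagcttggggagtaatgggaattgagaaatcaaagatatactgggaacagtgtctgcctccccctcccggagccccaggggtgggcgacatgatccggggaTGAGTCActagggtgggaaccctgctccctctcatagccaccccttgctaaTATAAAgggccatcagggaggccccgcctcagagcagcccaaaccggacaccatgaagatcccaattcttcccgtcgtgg
Ivl: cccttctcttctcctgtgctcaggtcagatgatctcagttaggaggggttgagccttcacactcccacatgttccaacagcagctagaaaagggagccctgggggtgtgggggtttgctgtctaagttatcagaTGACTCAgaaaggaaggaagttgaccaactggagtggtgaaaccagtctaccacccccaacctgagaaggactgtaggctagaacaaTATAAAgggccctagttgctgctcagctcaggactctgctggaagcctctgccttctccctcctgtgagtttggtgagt
Krt25: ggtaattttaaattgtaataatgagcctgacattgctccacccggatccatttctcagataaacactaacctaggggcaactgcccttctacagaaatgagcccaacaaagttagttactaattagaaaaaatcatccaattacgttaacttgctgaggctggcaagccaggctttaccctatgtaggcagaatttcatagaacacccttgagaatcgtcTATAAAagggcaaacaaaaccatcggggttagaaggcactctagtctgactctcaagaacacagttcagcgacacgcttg
Twist2: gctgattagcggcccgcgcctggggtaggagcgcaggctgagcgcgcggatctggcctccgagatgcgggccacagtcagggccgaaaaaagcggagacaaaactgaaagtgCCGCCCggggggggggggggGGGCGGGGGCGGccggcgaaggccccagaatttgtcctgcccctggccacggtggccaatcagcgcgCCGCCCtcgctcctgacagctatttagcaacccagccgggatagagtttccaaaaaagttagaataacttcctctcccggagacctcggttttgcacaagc
Krtdap and Ivl each hold TGANTCA, 81 and 116 bases before the start, and TATAAA, 30 and 29 bases before it. Krt25 holds TATAAA 30 bases before its start, and Twist2 holds GGGCGG at 4 positions, of which those at 118 and 112 bases before the start lie end to end. Over all 32851 RefSeq windows of this length, 7.81% held TGANTCA, 13.6% TATAAA and 35.7% GGGCGG. A window was matched for 74.2% of the genes 8-fold higher in the epidermis and 63.4% of those 8-fold higher in the dermis, under the 80% needed, so the shares were not compared between these groups.

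Cornification genes were the most unequal group. All 16 late cornified envelope genes with at least 1 FPKM, which encode small proteins cross-linked under the corneocyte surface, were higher in the epidermis, 15 of them past 8-fold, with a median log2 ratio of -7.15 (all genes: 0). Lce1m stood at 134 FPKM in the dermis and 14643 FPKM in the epidermis, Lce1a1 at 64.0 and 7464, and Lce1f at 22.2 and 2922. The 12 Lce1 genes lay within a narrow band, from -7.39 for Lce1f to -6.81 for Lce1a2, while Lce3a, listed at 0 in the dermis and 1.00 FPKM in the epidermis, was the least unequal. The call of Lce3a was fixed by the entry filter, since it entered through the epidermis alone. The Lce1 genes are near-identical copies, so reads can be split among them and their values are not separate measurements.

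The granular and cornified list followed, with 22 of its 24 members higher in the epidermis, 18 past 8-fold, and a median of -5.18. Ivl, an envelope scaffold protein, was at 7.62 FPKM in the dermis and 334 FPKM in the epidermis, and the transglutaminases that cross-link it were also to that side, Tgm1 at 13.3 and 178 FPKM and Tgm3 at 3.36 and 121 FPKM. Kallikreins that shed corneocytes had some of the largest gaps: Klk7 at 15.7 and 811 FPKM, Klk5 at 12.6 and 639 FPKM. Corneodesmosin, Cdsn, was at 34.7 and 1377 FPKM. St14, the membrane protease matriptase, was the member closest to equal at 50.1 and 54.9 FPKM (-0.54), and Psors1c2 went the other way at 22.9 and 3.57 FPKM (1.97).

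Spinous layer genes followed the same side. All 17 were higher in the epidermis, 11 past 8-fold, with a median of -4.65. Krtdap, a secreted protein of stratifying keratinocytes, was at 98.7 FPKM in the dermis and 6811 in the epidermis, and Calm4, a skin calmodulin-like protein, at 127 and 10246. Lgals7, the keratinocyte galectin, stood at 3754 and 16661 FPKM, and Sfn, the 14-3-3 protein of keratinocytes, at 804 and 1494, the smallest gap of the list (-1.31). These last genes were thus also abundant in the dermis library.

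Small proline-rich genes, whose products bridge envelope proteins, were higher in the epidermis in 9 of 10, 7 past 8-fold. Sprr2d was at 0.58 and 36.6 FPKM and Sprr4 at 1.01 and 58.3 FPKM. The exception was Sprr1a, at 206 FPKM in the dermis and 101 in the epidermis (0.61, within 2-fold). Sprr1a was at 1.09 FPKM in the mutant dermis and 37.3 FPKM in the mutant epidermis (-4.96).

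Barrier lipid genes gave 25 of 27 to the epidermis, 18 past 8-fold, with a median of -3.68. Alox12b and Aloxe3, the lipoxygenases that oxidise acylceramides, were at 8.03 and 463 FPKM and at 3.57 and 168 FPKM. The lipid transporter Abca12 was at 0.39 and 18.2 FPKM, and Elovl1, a very long chain fatty acid elongase, at 53.0 and 563 FPKM. Elovl3 and Elovl5 were the members within 2-fold. Clade B serpins gave 11 of 13 to the epidermis, with Serpinb12 at 3.57 and 226 FPKM, while Serpinb1a was higher in the dermis at 9.40 and 0.59 FPKM. Among alarm and defence genes 15 of 17 were higher in the epidermis, including Il18 (2.16 and 126 FPKM) and Il1f5, the interleukin 36 receptor antagonist (8.67 and 339 FPKM). The chemokines Cxcl14 (214 and 41.8 FPKM) and Ccl27a (70.0 and 24.5 FPKM) were the 2 higher in the dermis.

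Several of the best known epidermal and dermal genes could not be compared. Krt1 and Krt10, the spinous keratins, had too many fragments for an estimate in the epidermis table and are listed there at 0, while the dermis table gives 1446 and 2011 FPKM in the control and 454 and 578 FPKM in the mutant. Lor, the loricrin gene, was dropped for the same reason, at 621 FPKM in the control dermis with an epidermal listing of 21262 FPKM that carries the flag. Col1a1, Col1a2 and Col3a1, the main fibrillar collagens, carry that flag in the dermis table, where the control is listed at 8297, 3829 and 4353 FPKM. Their epidermis rows were unflagged, at 149, 80.3 and 84.7 FPKM in the control and 27.7, 15.1 and 15.7 FPKM in the mutant. The control dermis thus held more Krt1 and Krt10, and the control epidermis more collagen, than the mutant library of the same tissue.

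Cell junction genes leaned to the epidermis with a shallower gradient. Of 30 members, 22 were higher there and 6 past 8-fold, with a median of -2.16. Desmosome components were among them: Dsp at 90.8 and 589 FPKM, the plakophilin Pkp1 at 125 and 735 FPKM, and Perp at 220 and 1498 FPKM. The connexin Gjb5 was to the epidermis side at 3.95 and 163 FPKM, as were the claudins Cldn4 at 35.6 and 151 FPKM and Cldn1 at 14.9 and 44.3 FPKM. Over the whole claudin family, which includes genes of vessels and other tissues, 6 of 13 were higher in the dermis and 3 in the epidermis, beside 21.8% and 22.9% of all genes. With GC centring, described below, the claudin counts were 4 and 3, and in the mutant pair 4 and 3 of 10. The cadherins parted: Cdh1, E-cadherin of all layers, was at 53.4 and 157 FPKM (-1.95), and Cdh3, P-cadherin of basal cells and follicles, at 95.3 and 17.1 FPKM. In the mutant pair these read -3.13 and 1.93.

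Epithelial transcription factors separated by layer as well. Of 25, 16 were higher in the epidermis and 2 in the dermis. Those that drive late differentiation were to the epidermis side: Grhl3 at 6.45 and 80.1 FPKM, Grhl1 at 12.96 and 104 FPKM, Zfp750 at 23.0 and 125 FPKM, Ovol1 at 19.5 and 87.8 FPKM and Klf4 at 107 and 275 FPKM. Trp63, the master regulator of basal cells, was near the median gene at 41.9 and 39.7 FPKM (-0.34). Msx2, of the hair matrix, was higher in the dermis at 25.6 and 2.52 FPKM, and Ovol2 at 9.70 and 1.43 FPKM.

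Basal keratinocyte genes were not to the epidermis side. Of 15 members, 10 were higher in the dermis library, 5 lay within 2-fold and none was higher in the epidermis, with a median of 1.49. Krt5, the basal type II keratin, was at 6265 FPKM in the dermis and 2634 in the epidermis (0.84), its partner Krt14 at 4276 and 1496 (1.10), and Krt15 at 1447 and 1525 (-0.49). The hemidesmosome genes differed more: Itgb4 at 82.5 and 9.88 FPKM (2.53), Itga6 at 21.3 and 3.78 FPKM (1.80), and Col17a1 at 261 and 30.9 FPKM (2.63). Among the genes kept, short RNAs aside, Krt5 and Krt14 were within the 10 most abundant of the dermis library; the dropped Col1a1 and Col3a1 are listed above Krt14 there. The library labelled dermis thus held the transcripts that define basal keratinocytes at a high level, together with those that define fibroblasts. The mutant pair gave the same reading for this list, with 9 members higher in the dermis, 1 in the epidermis and a median of 1.55; there Krt5 was at 1806 and 704 FPKM and Itgb4 at 30.9 and 4.08 FPKM.

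Transcript GC content moved with the ratios of the control pair. Across 12594 genes with a transcript GC content, 95.9% of those compared, the median log2 ratio of the control pair was -0.28, -0.30, -0.23, 0.20 and 0.80 from the lowest to the highest of 5 equal groups of genes by GC content. The mutant pair gave medians from -0.10 to 0.02 over the same groups, and Spearman's rho with GC content, a description over genes of the same libraries, was 0.28 in the control pair and 0.02 in the mutant pair. With the ratio centred within 20 GC bins, an alternative chosen after seeing the data, the median of the basal list went from 1.49 to 0.70, 7 of 15 members were higher in the dermis and none in the epidermis. Krt5 then read 0.30, Krt14 0.57, Itgb4 1.70 and Itga6 2.14. The part of GC content in these values was not tested. The 8-fold count to the dermis side went from 377 to 225 with this centring and the epidermal count from 511 to 471.

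**Figure D2:**
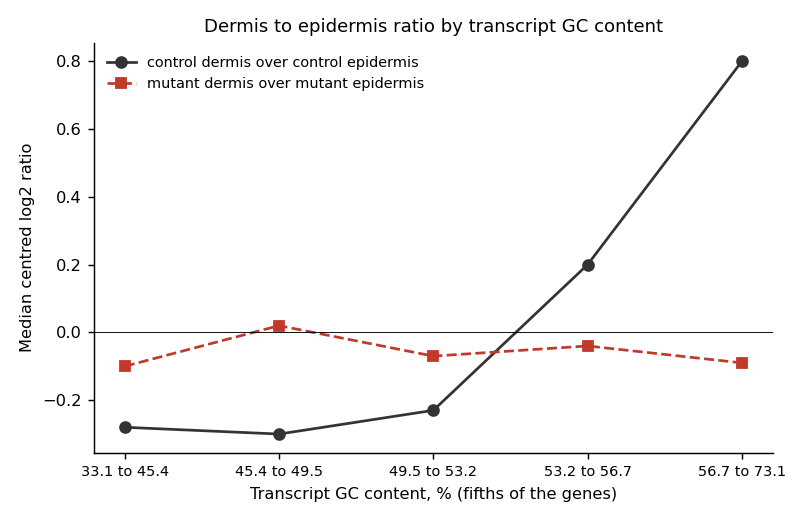
Median centred log2 ratio of dermis to epidermis (vertical axis) for genes in 5 equal groups by transcript GC content (horizontal axis, %), in the control pair (circles, solid line) and the mutant pair (squares, dashed line), 1 library a tissue in each. The control pair goes from -0.28 in the lowest group to 0.80 in the highest, while the mutant pair stays between -0.10 and 0.02.

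Hair follicle genes lay with the dermis. All 11 inner root sheath members with at least 1 FPKM were higher there, 4 past 8-fold, with a median of 2.21 (2.11 with GC centring). In the mutant pair 3 of 9 were higher in the dermis and 1 in the epidermis, with a median of 0.88. The inner root sheath is the sleeve that moulds the growing shaft, and its keratins were near the dermal end of the keratin family: Krt25 at 443 and 27.8 FPKM (3.53), Krt27 at 255 and 19.7 FPKM (3.22) and Krt71 at 504 and 45.3 FPKM (3.03). Trichohyalin, Tchh, which stiffens the sheath, was at 272 and 43.2 FPKM. Keratins of the shaft followed, with Krt35 at 171 and 12.6 FPKM and Krt85 at 56.2 and 4.30 FPKM, and so did the matrix factors Hoxc13 (26.3 and 2.08 FPKM) and Msx1 (54.3 and 2.12 FPKM). Within the shaft and matrix list 14 of 23 were higher in the dermis and 4 in the epidermis: Selenbp1, Padi1, Krtap3-2 and Krtap3-3, the last a pair of keratin-associated protein genes at 2.59 and 25.1 FPKM and at 4.76 and 19.2 FPKM. Of 51 keratin-associated genes, 27 had at least 1 FPKM, of which 16 were higher in the dermis and 2 in the epidermis (13 and 2 with GC centring). Their levels were low, with 98.8 FPKM in the dermis and 55.7 in the epidermis summed over the 27.

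The outer root sheath, companion layer and stem cell list was likewise to the dermis side in 14 of 21, with none to the epidermis. It also holds Aspn (3.74), Tnc (1.5) and Postn (0.71), matrix genes that are counted in the proteoglycan and glycoprotein list as well. Lhx2, a stem cell factor, was at 155 and 8.25 FPKM (3.66), Tbx1 at 50.4 and 1.85 FPKM, Sox9 at 53.1 and 6.56 FPKM and Lgr6 at 55.6 and 2.65 FPKM. Krt17, the keratin of the outer root sheath and early follicle, was at 3459 and 983 FPKM (1.40, or 0.57 with GC centring), while Krt79, of the follicle canal, was near the median gene at 721 and 586 FPKM (-0.12). The papilla and condensate list, drawn up for the mesenchymal part of the follicle, had 19 of 26 higher in the dermis and none in the epidermis, with Alx4 at 22.8 and 1.79 FPKM, Sox2 at 5.59 and 0.45 FPKM and Wif1 at 43.2 and 2.31 FPKM. Its members are not limited to that part. Sox18, the highest of the list (4.44), is also counted in the endothelial list, and Vcan (1.95) in the proteoglycan and glycoprotein list. Fgf7 was under 1 FPKM in both libraries.

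Across the 40 keratin genes, 22 were higher in the dermis, 7 in the epidermis and 11 within 2-fold, with a median of 1.18. With GC centring 17 and 6 were higher and the median was 0.57, and in the mutant pair 3 of 27 were higher in the dermis and 9 in the epidermis, with a median of 0.29. The 7 higher in the control epidermis were Krt78, Krt23, Krt12, Krt13, Krt80, Krt77 and Krt7. Krt78 stood at 7.81 and 360 FPKM, Krt23 at 11.3 and 441 FPKM and Krt80 at 56.4 and 306 FPKM. In order of ratio, keratins of the sheath and shaft were at the dermal end with Krt25 first, Krt17, Krt14, Krt5 and Krt15 lay between, and Krt78 and Krt23 were at the other end.

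**Figure D3:**
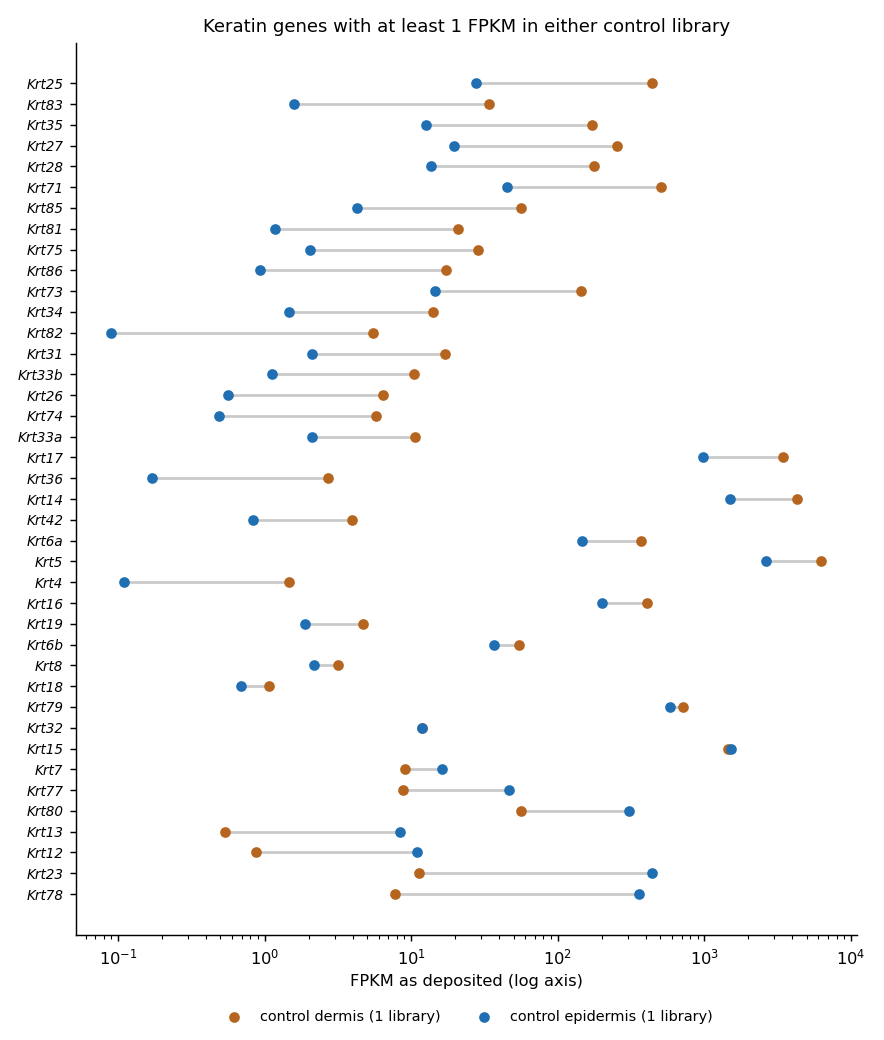
FPKM as deposited (log axis) of the 40 keratin genes with at least 1 FPKM in either control library, ordered by log2 ratio, with the dermis in brown and the epidermis in blue, 1 library each. Krt25 and the other sheath keratins lie at the top with the dermis higher, Krt15 stands at 1447 and 1525 FPKM, and Krt78, at 7.81 and 360 FPKM, is at the bottom.

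Connective tissue genes filled the dermis side. Of 36 fibroblast lineage genes, 30 were higher in the dermis, 13 past 8-fold, with a median of 2.24. Twist2, a dermal fibroblast factor, was at 387 FPKM in the dermis and 5.34 in the epidermis (5.52), Osr2 at 142 and 1.29 (5.55), Dlk1, of lower dermal fibroblasts, at 513 and 9.87 (5.15), and Pdgfra at 8.07 and 0.57 (2.12). En1, the homeobox gene whose locus drives the Cre of the mutants, was at 10.3 and 0.26 FPKM. Dpp4, used as a marker of upper fibroblasts, was the 1 member higher in the epidermis, at 2.65 and 5.78 FPKM.

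Matrix genes were on the same side. Fibrillar collagens other than those dropped were higher in the dermis in 6 of 7, with Col5a1 at 540 and 11.3 FPKM (5.04) and Col5a2 at 184 and 5.30 FPKM, and the remaining dermal collagens in 11 of 14, with Col6a2 at 1014 and 26.1 FPKM (4.81). Elastic fibre genes were among the steepest: Eln at 1048 and 15.2 FPKM (5.60) and Mfap2 at 829 and 19.5 FPKM (4.92). Of 37 proteoglycan and glycoprotein genes, 31 were higher in the dermis, among them Dcn at 53.8 and 5.34 FPKM and Lum at 38.8 and 0.79 FPKM. The 2 on the other side were Omd and Ecm1, a secreted protein also made by keratinocytes, at 48.9 and 703 FPKM (-4.23). Collagen processing enzymes were higher in the dermis in 26 of 31, with the chaperone Serpinh1 at 1025 and 36.1 FPKM and the cross-linking oxidase Loxl1 at 128 and 1.56 FPKM (5.24).

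Basement membrane genes, whose products come from both tissues, were to the dermis side in 22 of 28 and to the epidermis side in none, with a median of 2.63. Type IV collagen, the mesh common to all basement membranes, was at 411 and 12.7 FPKM for Col4a1 and 323 and 7.80 FPKM for Col4a2. Among laminin genes that keratinocytes express, Lama3 was at 5.81 and 4.04 FPKM (0.02) and Lamb3 at 89.9 and 13.6 FPKM (2.22). Anchoring fibril collagen Col7a1 was at 290 and 21.3 FPKM (3.30). Fras1 had the lowest ratio of the list, at 2.65 and 3.86 FPKM (-0.83). Integrins divided in the control pair, less so with GC centring (9 to the dermis side and 6 to the epidermis side) and in the mutant pair (8 and 2 of 16). Of 18 genes, 7 were higher in the dermis, including Itga3 (39.8 and 5.02 FPKM) and Itgb1 (24.6 and 4.46 FPKM), and 7 in the epidermis, including the leukocyte chains Itgam (0.73 and 3.21 FPKM) and Itgax (0.08 and 1.16 FPKM) and the more abundant Itgb5 (96.3 and 148 FPKM).

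**Figure D4:**
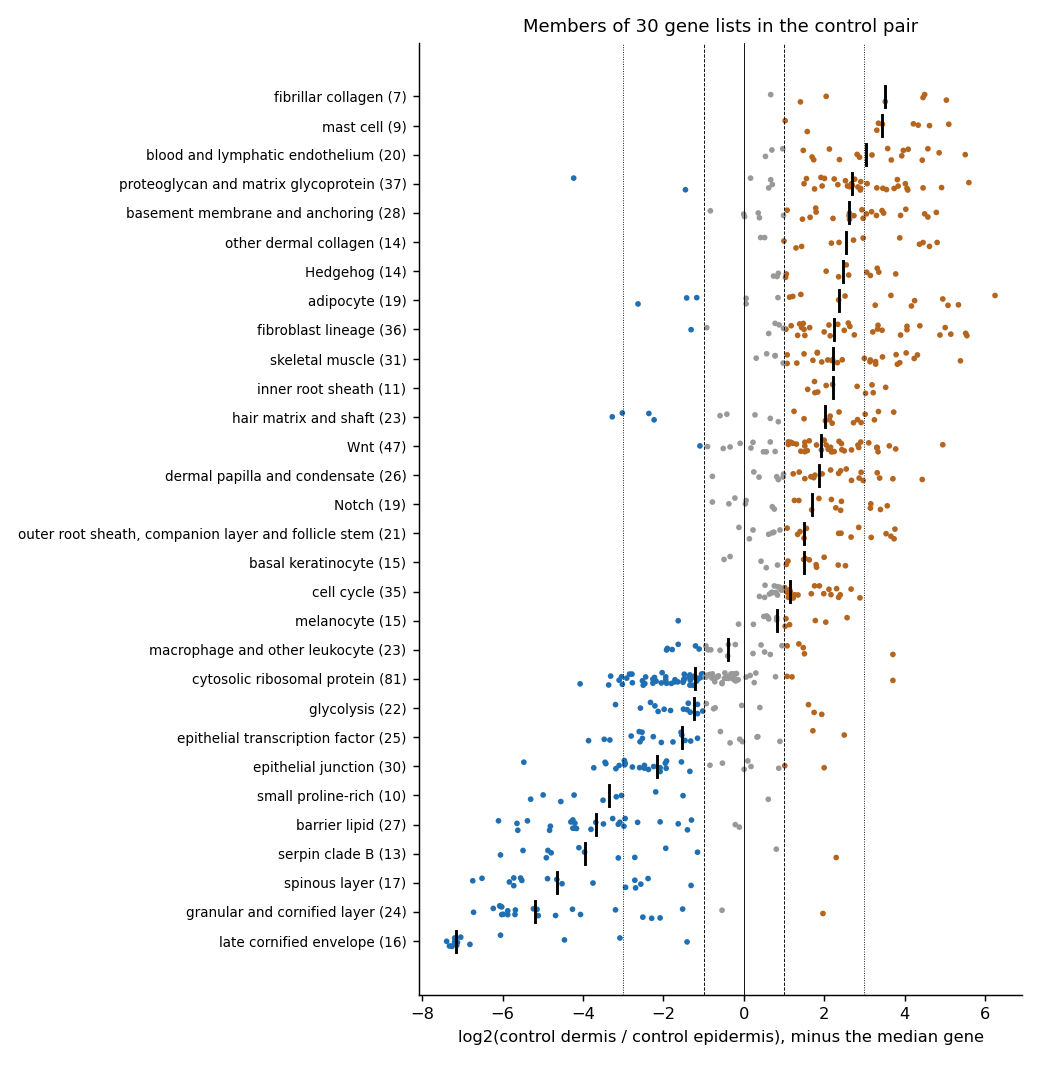
Centred log2 ratio of control dermis to control epidermis (horizontal axis) for the members of 30 gene lists, 1 point a gene, with the number of members in brackets and the list median as a black bar. Brown points are past 2-fold to the dermis side and blue points to the epidermis side; list medians run from -7.15 for the late cornified envelope to 3.52 for the fibrillar collagens.

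The other cell types of the dermis were each present. Endothelial genes were higher there in 17 of 20 and in the epidermis in none, with a median of 3.04: Cldn5 was at 136 and 1.26 FPKM (5.51) and Cdh5, VE-cadherin, at 28.8 and 0.76 FPKM. All 9 mast cell genes were higher in the dermis, 7 past 8-fold, with the tryptase Tpsb2 at 410 and 8.02 FPKM (5.10) and the carboxypeptidase Cpa3 at 83.8 and 1.58 FPKM. Skeletal muscle genes were higher in the dermis in 26 of 31, with Ckm at 379 and 5.82 FPKM (5.39) and Acta1 at 799 and 35.5 FPKM (4.04). Summed over the list, muscle genes held 2385 FPKM in the control dermis and 8302 FPKM in the mutant dermis, so the amount of muscle RNA differed between dermis libraries. Nerve and Schwann genes were 11 of 17 to the dermis side. Erbb3 and L1cam were the 2 to the epidermis side, at 27.4 and 48.8 FPKM and at 3.53 and 17.6 FPKM. The globin gene Hba-a1, from red blood cells, was at 11673 and 306 FPKM.

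Fat cell genes held the highest ratio to the dermis side of all the lists and some exceptions. Car3, the carbonic anhydrase of adipocytes and muscle, was at 332 and 2.27 FPKM (6.25), Adipoq at 59.5 and 0.34 FPKM (5.08) and Plin1, the lipid droplet coat, at 95.7 and 0.79 FPKM (5.34). Of 19 members, 13 were higher in the dermis, while Acsl1, Lipe and Cebpa were higher in the epidermis, at 23.2 and 111 FPKM, 28.2 and 57.7 FPKM, and 128 and 217 FPKM. Those 3 act in general lipid metabolism or, for Cebpa, in keratinocytes as well. Members differed between the control and mutant dermis in both directions: Adipoq was at 59.5 and 3.50 FPKM and Plin1 at 95.7 and 5.28 FPKM, while Fabp4, a fatty acid carrier, was at 73.2 and 317 FPKM and Pparg, the adipocyte master factor, at 4.22 and 12.3 FPKM.

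Leukocyte genes lay on both sides in the control pair. In the macrophage list 5 of 23 were higher in the dermis and 6 in the epidermis, shares near those of all genes, with a median of -0.38. In the mutant pair 16 of 23 were higher in the dermis and none in the epidermis, with a median of 1.5. Pf4 was to the dermis side at 163 and 8.46 FPKM and F13a1 at 7.55 and 1.26 FPKM, whereas Tyrobp, the signalling adaptor of myeloid cells, was at 26.7 and 70.3 FPKM and Aif1 at 1.10 and 4.95 FPKM. Antigen presentation genes were to the epidermis side: Cd74 at 39.2 and 172 FPKM (-2.52) and H2-Aa at 5.02 and 38.9 FPKM (-3.14). Cd207, which defines mature Langerhans cells, was under 1 FPKM in both libraries. Melanocyte genes were to the dermis side in 6 of 15 and to the epidermis side in 1, with Dct at 120 and 21.1 FPKM (2.04) and Mlana at 5.94 and 15.1 FPKM (-1.63). Chga, a neuroendocrine granule gene, was at 1.76 and 96.4 FPKM, while the Merkel cell factor Atoh1 was at 2.26 and 0.92 FPKM.

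Signalling genes were read by role. Among FGF ligands, Fgf22, a keratinocyte ligand, was at 7.46 FPKM in the dermis and 83.0 in the epidermis (-3.73), and the FGF carrier Fgfbp1 at 24.6 and 358 (-4.22), while Fgf10, a mesenchymal ligand, was low at 1.77 and 0.18 FPKM. Of the receptors, Fgfr1, mainly mesenchymal, was at 140 and 8.42 FPKM (3.49), Fgfr2, an epithelial receptor, at 48.2 and 10.6 FPKM (1.67), and Fgfr3 at 70.0 and 53.8 FPKM (-0.04). In all, 9 of 20 members of the FGF list were to the dermis side and 2 to the epidermis side. Pdgfa, a ligand that epithelium sends to fibroblasts, was itself higher in the dermis library at 182 and 15.8 FPKM (3.03), on the same side as the receptor Pdgfra. Vegfa was within 2-fold at 33.5 and 38.8 FPKM (-0.62).

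Hedgehog signalling was to the dermis side from ligand to target, in 11 of 14 members with none in the epidermis. Shh, the ligand of the follicle tip, was at 64.4 and 3.79 FPKM (3.36), the receptor Ptch1 at 118 and 14.2 FPKM (2.55), Smo at 113 and 13.02 FPKM (2.61) and the target factor Gli1 at 219 and 18.7 FPKM (3.06). With GC centring the list median went from 2.46 to 1.91. Of 47 Wnt genes, 36 were higher in the dermis and 1 in the epidermis, and in the mutant pair 28 and 5. Wnt6 was at 127 and 8.51 FPKM (3.34), Wnt10b, of the placode, at 70.6 and 8.95 FPKM (2.43), Wnt5a, of mesenchyme, at 19.0 and 1.34 FPKM (2.68) and the inhibitor Sfrp2 at 154 and 2.77 FPKM (4.95). Wnt4 at 230 and 117 FPKM (0.56) and Wnt3 at 15.6 and 16.8 FPKM (-0.51) were within 2-fold, and Wnt7b was the 1 member higher in the epidermis, at 45.9 and 74.1 FPKM (-1.09).

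BMP and TGF-beta genes were to the dermis side in 24 of 33, with Bmp4 at 67.4 and 5.56 FPKM (2.97), the antagonist Nog at 12.9 and 0.38 FPKM (2.92) and the target Id3 at 307 and 21.97 FPKM (3.33). Bmp2 was within 2-fold at 14.7 and 18.0 FPKM, and the receptor Bmpr2, at 0.50 and 2.94 FPKM, was the 1 member higher in the epidermis. Notch genes split by member: the ligand Jag2 (191 and 11.1 FPKM) and the endothelial Notch4 (14.5 and 0.30 FPKM) were to the dermis side, Notch1 was at 90.7 and 25.5 FPKM (1.37), and Jag1, Notch2 and Notch3 were within 2-fold, Notch3 at 54.1 and 52.4 FPKM. In all, 12 of 19 were higher in the dermis and none in the epidermis, or 11 and 1 with GC centring. The mutant pair gave 10 to the dermis side and 4 to the epidermis side.

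Several EGF receptor ligands and receptors were on the epidermis side. Btc, betacellulin, was at 0.39 and 26.3 FPKM (-4.71), Tgfa at 2.41 and 9.06 FPKM (-1.98), and the receptors Erbb2 at 66.2 and 109 FPKM and Erbb3 at the values above, while Egfr was level with the median gene at 4.95 and 4.86 FPKM (-0.39). Areg was to the dermis side at 3.11 and 0.24 FPKM. Of the 16 genes of the list, which also holds ectodysplasin genes, 6 were higher in the epidermis and 2 in the dermis, with a median of -0.29. With GC centring the counts were 5 and 4 and the median -0.17. In the mutant pair 8 of 15 members were higher in the epidermis and 3 in the dermis, with a median of -1.19.

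Retinoid genes, the pathway the study's alleles act on, had members on each side. Cyp26b1, with 2 listed transcripts at chr6:84521408-84543902 (mm9), was at 54.2 FPKM in the control dermis and 4.97 FPKM in the control epidermis (2.79), and at 102 and 13.7 FPKM in the mutant pair (2.04), where summed FPKM do not tell the deleted transcript from the intact one. Rbp4, the retinol carrier, was at 61.5 and 0.33 FPKM (5.14), and Crabp1 at 35.0 and 4.25 FPKM (2.36). On the epidermis side lay Rbp2, at 11.95 and 873 FPKM (-6.49), the retinol dehydrogenase Sdr16c5 at 5.27 and 190 FPKM (-5.34), Fabp5 at 81.7 and 3278 FPKM (-5.72) and Crabp2 at 6.84 and 142 FPKM (-4.61). Receptors differed less: Rarg was at 229.5 and 123.4 FPKM (0.48) and Rxra at 128 and 130 FPKM (-0.43). Of 23 members, 8 were higher in the dermis and 7 in the epidermis, beside 21.8% and 22.9% of all genes. With GC centring the retinoid counts were 6 and 5, and in the mutant pair 8 and 9.

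Cell division genes were to the dermis side in 21 of 35 and to the epidermis side in none, with a median of 1.14 (28 of 35 and 1.39 with GC centring). Birc5, survivin, was at 54.8 and 5.57 FPKM and Mki67 at 8.51 and 2.08 FPKM. Hox genes, which mark position along the body axis, were to the dermis side in 21 of 29 and to the epidermis side in none; Hoxd9 was at 15.95 and 0.53 FPKM (3.06) and Hoxb6 at 32.5 and 4.70 FPKM (2.14). The mutant pair gave the Hox list 11 to the dermis side and 1 to the epidermis side. Ribosomal protein genes were 48 of 81 to the epidermis side and 3 to the dermis side, with a median of -1.22. The size of this gap depends on the reference, and their median before centring was -0.81.

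The mutant pair, 1 library a tissue and centred on its own median of 0.76, is a second reading of the same tissues in another genotype. At 8-fold it put 676 of 13269 genes (5.09%) on the dermis side and 800 (6.03%) on the epidermis side. At 2-fold, 22.7% of those 13269 were higher in the dermis and 23.4% in the epidermis. Of the 2860 genes 2-fold higher in the control dermis, 1931 (67.5%; 64.1% of the mutant pair's 3015) passed 2-fold the same way there and 28 the other way. Of the 3007 on the epidermis side, 1979 (65.8%; 63.7% of 3107) passed the same way and 58 the other way. The gap was wider in the mutant pair for several groups that define a tissue: the skeletal muscle median was 4.80 against 2.21, the endothelial median 4.54 against 3.04, the granular and cornified median -6.64 against -5.18. The fibroblast median was 3.25 against 2.24.

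Some list medians and genes lay on opposite sides in the control and mutant pairs. The hair matrix and shaft median was 2.03 over 23 members in the control pair and -2.39 over 14 in the mutant pair. These medians cover different members, since genes under 1 FPKM in both mutant libraries, such as Krt81 and Krt83, drop out. Of those in both, only Krt34 (2.20 and -2.24), Krtap3-1 (0.86 and -2.53) and S100a3 (0.66 and -1.23) changed sign. Krt35 kept its sign (3.25 and 0.40), at 2.48 and 0.55 FPKM in the mutant pair. Tchh read 2.21 in the control pair and -3.68 in the mutant pair, at 3.17 and 30.5 FPKM. The keratin-associated median was 1.24 over 27 members in the control pair and -4.86 over 3 in the mutant pair, so it covers different members. Of those 3, Krtap3-2 and Krtap3-3 were to the epidermis side in the control pair as well (-3.27 and -2.23). Krtap3-1 was within 2-fold there (0.86). Cd74 read -2.52 and 3.47, with the mutant epidermis at 0.59 FPKM. Whether these follow genotype or the libraries cannot be told apart with 1 library of each. The sex of the embryos also differed between pairs: Xist was at 9.63 and 10.03 FPKM in the control dermis and epidermis and at 0.03 and 0.02 FPKM in the mutant pair, where the Y-linked Eif2s3y was at 2.59 and 4.62 FPKM against 0 and 0.13 FPKM in the controls. Sex therefore did not differ between the control dermis and the control epidermis by these genes.

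**Figure D5:**
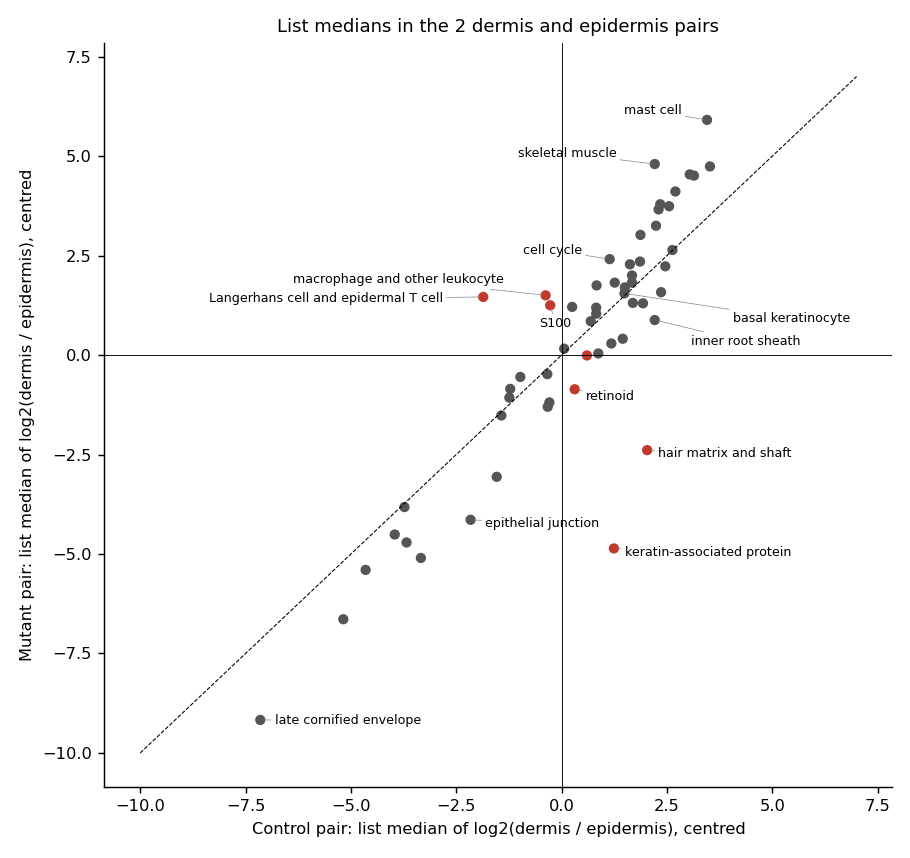
Each point is a gene list, with its median centred log2 ratio of dermis to epidermis in the control pair on the horizontal axis and in the mutant pair on the vertical axis, 1 library a tissue in each pair; the dashed line marks equal values and red points are lists whose medians differ in sign. Late cornified envelope genes lie at -7.15 and -9.17 and basal keratinocyte genes at 1.49 and 1.55. Hair matrix and shaft genes lie at 2.03 over 23 members and -2.39 over 14.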

How the data were processed

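RNA was extracted with Trizol and made into libraries with the Illumina TruSeq RNA kit, per the labels' protocols. TopHat 1.3.2, Bowtie 0.12.7.0, Cufflinks, Cuffdiff 1.3.0 and mm9 are named in the submitters' processing notes. The deposited tables give FPKM per RefSeq transcript, made by the authors; they hold no read counts, so the depth is unknown and no interval is given. Separate scaling of the dermis and epidermis tables means that FPKM of a dermis and an epidermis library, printed as deposited, are compared only through centred ratios.

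FPKM were summed per gene symbol. Genes with a FAIL, HIDATA or LOWDATA row in either table were dropped, and genes with at least 1 FPKM in either library were kept (pseudocount 1). Folds were computed in Python with pandas, tested on simulated data, and counted at 2-fold and 8-fold; with 1 library a group no test was run. GC content came from the longest GENCODE vM1 coding transcript of each symbol. The 57 gene lists, the members and the rules were chosen with earlier results of these data known. Named genes are the 15 with the highest and the 15 with the lowest ratio among symbols with 1 transcript and at least 10 FPKM (without short RNA, predicted and sex-linked genes), the 10 most abundant of each library, up to 8 leading members of a list each way and those against its majority, any expressed ligand, receptor, collagen, laminin, integrin or keratin, and Cyp26b1; many are given as counts only. E16.5 libraries and further E18.5 libraries were not analysed here. Some genes that this rule names are not reported here.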

Additional observations from a re-analysis of the deposited data

Results flagged for a closer look

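Members of the gene lists were picked out here when they passed 2-fold to opposite sides in the control pair and in the mutant pair and reached 20 FPKM in at least 1 of the 4 libraries. The difference was not tested, since each tissue and genotype has 1 library. In all, 8 list members met this, among 44 genes in all (31 without short RNAs). On the epidermis side in the control pair were H2-Aa at -3.14, Cd74 at -2.52 and H2-Ab1 at -2.10, with mutant pair values of 1.69, 3.47 and 2.96. H2-Aa was at 38.9 FPKM in the control epidermis and 0.14 FPKM in the mutant epidermis. Tyrobp read -1.78 and 2.10, S100a10 read -1.40 and 1.28, and Cd68 read -1.20 and 1.52. For these the mutant dermis was above the control dermis, with Tyrobp at 130 and 26.7 FPKM, S100a10 at 661 and 95.6 FPKM and Cd68 at 47.9 and 10.2 FPKM. On the dermis side in the control pair were Tchh at 2.21 and Psors1c2 at 1.97, with mutant pair values of -3.68 and -1.71. Their control dermis levels were 272 and 22.9 FPKM, and their mutant dermis levels 3.17 and 1.67 FPKM.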

How the results depend on the processing

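Each value rests on 1 library a tissue and no read totals are known, so neither replicate spread nor counting error could be given. No paired analysis was possible because each tissue and genotype has 1 library and no test was run. The counts moved most with the reference. Centred on ribosomal protein genes (their median before centring was -0.81) the 2-fold counts were 7455 to the dermis side and 958 to the epidermis side, and the 8-fold counts 1330 and 215. Centred on the housekeeping list (-0.57) they were 6499 and 1170, and 1050 and 244. Without centring, and likewise with no filter on low values, the dermis counts were 4298 and 591. A pseudocount of 5 FPKM gave 1842 and 1754 at 2-fold and 159 and 251 at 8-fold, and one of 0.1 gave 979 and 802 at 8-fold. Centring within GC bins gave 225 to the dermis side at 8-fold, and the mutant libraries gave 676 and 800. Both GC centring and leaving out short RNA symbols were chosen after seeing the data. Of 166 named genes past 2-fold, 140 stayed past it in the same direction in the mutant libraries, 142 with ribosomal centring, 143 with housekeeping centring, 147 with the pseudocount of 5 and 159 with GC centring. Centred on ribosomal protein genes, Cd68 (0.02), Cebpa (0.05), Erbb2 (0.09), Itgb5 (0.19), Krt7 (0.02) and Wnt7b (0.13) turned to the dermis side. Among medians past 2-fold in the control pair and those 166 genes, the sign turned in the mutant libraries for the Langerhans and epidermal T cell median (1.46), the hair matrix and shaft median (-2.39), the keratin-associated median (-4.86), Aif1 (0.17), Areg (-2.27), Cd68 (1.52), Cd74 (3.47), H2-Aa (1.69), H2-Ab1 (2.96), Hoxb6 (-0.38), Mlana (0.99), Notch1 (-0.28), Omd (0.19), Psors1c2 (-1.71), S100a10 (1.28), Tchh (-3.68) and Tyrobp (2.10). Krt34, which is not among the 166, turned as well (-2.24). Of medians within 2-fold in the control pair, the macrophage (1.5), S100 (1.25), retinoid (-0.86) and Eph and semaphorin (-0.01) medians also turned. Over all members with at least 1 FPKM in the mutant pair the retinoid median was -0.42. In the mutant pair the hair matrix and shaft median rests on 14 of 23 members and the keratin-associated median on 3 of 27. The cause of these turns was not tested.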
